A study of Homo sapiens
Mus musculus and Homo sapiens and Mus musculus with 7 samples.

Results

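The human mRNAs of 40 translation initiation factor genes outside eIF2 were followed in a mixed culture of human and mouse cells, in which ribosomes of either species could be pulled down by a tag. The genes were chosen by name from the human part of the count tables, which lists 58721 genes, and not by any measured value. The human cells were HEK293, an embryonic kidney line, expressing RPL22-HA, a protein of the large ribosomal subunit fused to the HA tag. The mouse cells were NIH3T3, a fibroblast line, expressing RPL22-V5, the same protein with a V5 tag. An antibody against HA or V5 recovers ribosomes of the matching line together with the RNA on them.

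There were 7 libraries: total RNA of the co-culture (the input), each line grown alone, 2 immunoprecipitates (IPs) with the HA antibody and 2 with the V5 antibody. All IPs were made from the co-culture. The first HA and the first V5 IP came from lysate 1, the second HA IP from lysate 5 and the second V5 IP from lysate 4. The sources used here do not give what drives the tagged RPL22, whether the lines are clones, or whether the cells grown alone were tagged. Nothing says that the lysates were separate cultures, so p-values measure only the spread between these IPs, which may be technical. The input and the monocultures had no replicates.

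Total counts ran from 826781 to 2063885 per library. Human genes took 26.9% of the counts in the input, 99.99% in HEK293 cells alone, 82.1% and 77.6% in the first and second HA IP, 6.25% and 4.48% in the first and second V5 IP (below, the HA pair and the V5 pair, always in that order), and 0.0256% in NIH3T3 cells alone. The human cells carry the HA tag, so human RNA in a V5 IP is taken here as the background of a pull-down, and these libraries hold only 128915 and 81798 human counts. Levels below are given as CPM, counts scaled to the total of human counts in their library. In that unit 1 count is worth 0.824 CPM in the deepest human library, the second HA IP, and 12.2 CPM in the shallowest, the second V5 IP. Of 7 markers of HEK293 cells 6 had counts in at least 1 of the 6 libraries with human RNA, NEFM being at 0. In HEK293 cells alone 5 had counts, and in the V5 pair 2 and 4. The summed level ran from 110 to 416 CPM, and in the first V5 IP VIM made up 287 of 372 CPM. The 7 human fibroblast markers summed to between 0 and 12.2 CPM, 3 blood markers to at most 1.21 CPM, and ALB and APOA1, markers of liver cells, to at most 10.7 CPM. In bulk libraries fewer cells of a type and less RNA per cell cannot be told apart.

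Initiation in human cells starts with the small ribosomal subunit, which carries the initiator tRNA, eIF1, eIF1A, eIF5 and the large scaffold complex eIF3. It is brought to the capped 5′ end of an mRNA by eIF4E, the cap-binding protein, eIF4G, a scaffold, and the RNA helicase eIF4A, while the poly(A)-binding protein PABPC1 contacts eIF4G from the 3′ end. The subunit then scans to a start codon, eIF1 and eIF5 act against and for its recognition, and eIF5B joins the large subunit. eIF2B recharges eIF2 with GTP, and the 4E-BP proteins block eIF4E when mTOR activity is low. EIF2A, despite its name, is not a subunit of eIF2.

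What the scanning ribosome reads is the sequence around the start codon, in which a purine 3 bases before it and a G just after it, at position 4 counted from the A of ATG, favour recognition. Of the 40 genes 39 start with ATG in their GENCODE 29 reference transcript, 35 have the purine, 19 have the G and 17 have both. The shares were 87.5%, 47.5% and 42.5%, against 85.0%, 50.7% and 42.6% of 18669 coding genes. The contexts shown are those of the genes on which the levels below turn or which depart from the usual start, with 10 bases before the start codon, the start codon in capitals and 12 bases after it, 5′ to 3′ along the transcript on hg38.
EIF1: atcgtatcgtATGtccgctatccag
EIF1B: ctagtatcgcATGtccactatccag
EIF3B: cgttgggcccATGcaggacgcggag
EIF5: ataagccaaaATGtctgtcaatgtc
EIF5B: ttgacaagcaATGgggaagaaacag
EIF3G: actttttgcgATGcctactggagac
EIF6: acttggcctcATGgcggtccgagct
EIF4G2: agccgccaaaGTGgagagtgcgatt
EIF1 (start codon at chr17:41689039-41689041, plus strand), EIF1B (chr3:40309942-40309944, plus strand) and EIF3B (chr7:2354922-2354924, plus strand) were the 3 genes with neither base, 7.5% of the genes against 6.91% of all coding genes. EIF1 and EIF1B encode close versions of the factor that rejects poor start sites. EIF4G2 (chr11:10807293-10807295, minus strand), which encodes an eIF4G relative without the part that binds eIF4E, was the exception to ATG, with an annotated GTG. EIF5 (chr14:103335861-103335863), EIF5B (chr2:99337555-99337557) and EIF3G (chr19:10119857-10119859) have the purine, and EIF6 (chr20:35284485-35284487) has the G without the purine.

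All 40 genes together made up 1.03% of human counts in the input (exact Clopper-Pearson 95% interval 0.992 to 1.07%) and 0.950% in HEK293 cells alone (0.930 to 0.972%). The share was 1.24% and 1.12% in the HA pair and 1.02% and 1.21% in the V5 pair. Intervals cover counting error only. The mean share of the HA IPs (1.18% ± 0.086, SD, n = 2) lay within the spread of the V5 IPs (1.11% ± 0.129, SD, n = 2), with a difference of 0.064 percentage points (exact permutation test, two-sided, p = 0.667, the smallest p that 2 against 2 libraries allow being 0.333). Mitochondrially encoded RNA took 5.58% and 8.35% of human counts in the input and in HEK293 cells alone, 0.354% and 0.466% in the HA pair and 2.28% and 3.54% in the V5 pair. With these genes taken out of the total the difference between HA and V5 IPs was 0.035 percentage points (exact permutation test, two-sided, p = 1). The share of the initiation factors thus stayed between 0.950% and 1.24% in the 6 libraries with human RNA, while its makeup differed between them.

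EIF1 and EIF4EBP1 took 25.1% to 48.3% of the genes' counts in every library. Set per length, in TPM (counts divided by exonic length and scaled like CPM over human genes), EIF4EBP1 stood first with a mean of 4248 TPM over the 6 libraries and EIF1 second with 1355 TPM. EIF4EBP1 was above EIF1 in each of the 6 libraries. In CPM, which leaves length out, EIF1 had the higher mean, 2140 against 1988. EIF3K (583 TPM), EIF6 (549 TPM), EIF5A (515 TPM) and EIF3G (497 TPM) followed, and their ranges over the libraries overlapped, so their order is not resolved. At the other end EIF4A1 and EIF3C were each at a mean below 1 TPM. EIF2B5, EIF4G3, EIF4EBP2 and EIF4A2 had means from 1.76 to 5.54 TPM.

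**Figure D1:**
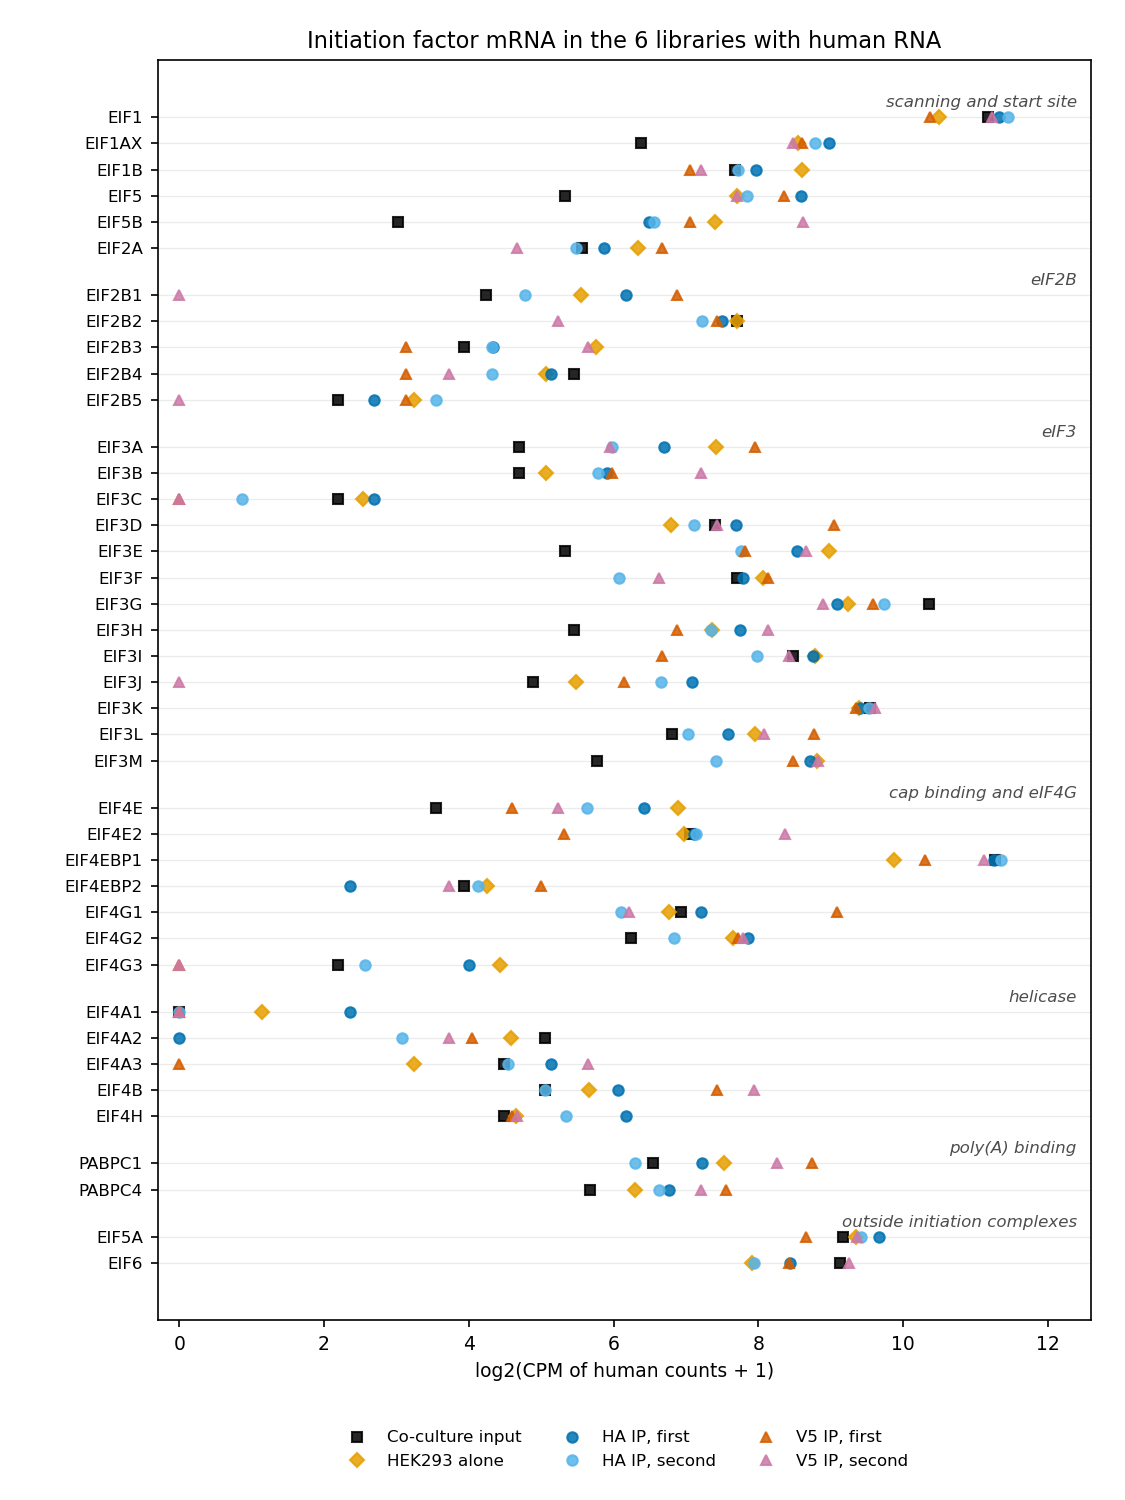
Level of each of the 40 genes, grouped by role, in the 6 libraries with human RNA, as log2 of CPM plus 1, with 1 point per library. EIF1 and EIF4EBP1 lie to the right in all 6 libraries, and EIF5B, EIF5, EIF1AX, EIF3E and EIF3M have their lowest point in the co-culture input (black squares).

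The low values of EIF4A1 and EIF3C come with a limit of the counting. EIF4A1 (chr17:7572706-7579005, plus strand) encodes the main eIF4A helicase, and it had 4 counts in all 6 libraries together. Every base of its reference transcript (100%) is also covered by exons of other annotated genes, the SENP3-EIF4A1 read-through and AC016876.2, both of which were at 0 counts in every library. EIF3C (chr16:28688558-28735730, plus strand), a core eIF3 subunit, had 10 counts, and 96.8% of the 50-base stretches of its transcript also occur in other transcripts, chiefly those of its near-identical copy EIF3CL, which had 2 counts. The level of neither gene can be read from these tables. EIF4A1, EIF3C and EIF2B5 did not reach the count needed for testing, which left 37 of the 40 genes, and 31 of the 40 had at least 100 counts over the 6 libraries.

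Among the scanning and start site factors, EIF1 (chr17:41688885-41692668) stood at 2313 CPM in the input and 1450 CPM in HEK293 cells alone. It reached 2560 and 2784 CPM in the HA pair and 1326 and 2408 CPM in the V5 pair. The first V5 IP and HEK293 cells alone were low, and both HA IPs lay above all other libraries. EIF1B (chr3:40309684-40312424) was at 203 CPM in the input, 387 in HEK293 cells alone, 249 and 210 in the HA pair and 132 and 147 in the V5 pair. Its highest library was the HEK293 monoculture, and its V5 values lay below all others. Per length, EIF1 exceeded EIF1B in every library, from 1.98-fold in HEK293 cells alone to 8.66-fold in the second V5 IP, with a median of 5.71-fold.

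EIF5 (chr14:103333544-103345025), which makes eIF2 hydrolyse GTP at the start codon, stood at 39.3 CPM in the input and 208 CPM in HEK293 cells alone. The HA pair held 385 and 228 CPM and the V5 pair 326 and 208 CPM. EIF1AX (chrX:20124518-20141844), which encodes the eIF1A that opens the subunit for scanning, was at 82.1 CPM in the input, 373 in HEK293 cells alone, 503 and 439 in the HA pair and 388 and 355 in the V5 pair. For both genes the input stood below all 5 other libraries. EIF2A had between 24.5 and 101 CPM, both extremes being V5 IPs.

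EIF5B (chr2:99337353-99401326), the GTPase of subunit joining, showed the widest gap. It had 2 counts in the input, a level of 7.14 CPM, against 139 counts in HEK293 cells alone, a level of 168 CPM. The HA pair held 89.1 and 93.1 CPM and the V5 pair 132 and 391 CPM, the latter 2 from 17 and 32 counts. The input was far below the rest, and the second V5 IP was the highest. Of its transcript 14.7% overlaps exons of REV1, and counting used no strand.

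Of the 5 eIF2B subunits the beta subunit EIF2B2 (chr14:75002911-75012366) had the highest mean level per length, 66.7 TPM. In the V5 IPs the order is not resolved. EIF2B1 had 78.4 TPM against 76.5 for EIF2B2 in the first, and EIF2B3 stood above EIF2B2 in the second, from 4 counts against 3. Of the transcripts of EIF2B2 and EIF2B1 29.3% and 22.8% overlaps other genes. EIF2B2 had 207 CPM in the input, 208 in HEK293 cells alone, 179 and 148 in the HA pair and 171 and 36.7 in the V5 pair. All libraries but the second V5 IP lay close together. EIF2B1, the alpha subunit, ranged from 0 counts in the second V5 IP, which allows up to 36.7 CPM, to 116 CPM in the first. It stood at 17.8 CPM in the input, 46.0 in HEK293 cells alone and 71.3 and 26.4 in the HA pair. EIF2B3, EIF2B4 and EIF2B5, the gamma, delta and epsilon subunits, did not pass 53.2 CPM in any library.

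The subunits of eIF3 are joined in a single complex, but their mRNAs were far apart per length. EIF3K, EIF3G and EIF3I, with EIF3D in place of EIF3I in the first V5 IP, made up 62.0% to 87.2% of the summed TPM of the 13 eIF3 genes. EIF3C aside, EIF3B was the lowest in 5 of the 6 libraries, between 6.03 and 16.8 TPM there, and EIF3J, with 0 counts, in the second V5 IP. The highest subunit exceeded EIF3B 33.8- to 135-fold in those 5 libraries, with the widest gap in the input. The counts divide by the exonic length of all annotated isoforms together, so a gene with long unused exons is understated. For EIF3B that length was 8998 bases, against 3055 in its reference transcript. Its place as the lowest and the ratios to it depend on the length used.

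EIF3K (chr19:38619082-38636955), a small peripheral subunit, was even across the libraries, with 746 CPM in the input, 668 in HEK293 cells alone, 678 and 737 in the HA pair and 652 and 782 in the V5 pair. EIF3G (chr19:10115017-10119918), an RNA-binding subunit involved in scanning, was highest in the input with 1306 CPM. It stood at 606 CPM in HEK293 cells alone, 544 and 856 in the HA pair and 768 and 477 in the V5 pair. No library reached the level of the input. EIF3F (chr11:7970251-8001862), a subunit of the MPN domain family, was at 207 CPM in the input, 267 in HEK293 cells alone, 221 and 66.8 in the HA pair and 279 and 97.8 in the V5 pair. Here the second IP of either antibody was low.

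EIF3E (chr8:108201216-108435333) and EIF3M (chr11:32583798-32606262) encode subunits of the PCI domain ring. EIF3E stood at 39.3 CPM in the input and 504 CPM in HEK293 cells alone, with 371 and 217 CPM in the HA pair and 225 and 403 CPM in the V5 pair. EIF3M was at 53.5 CPM in the input, 446 in HEK293 cells alone, 421 and 170 in the HA pair and 357 and 452 in the V5 pair. For both genes the input lay below all other libraries, and HA and V5 values overlapped. Of the EIF3M transcript 14.7% overlaps exons of CCDC73, and 16.3% of the 50-base stretches of the EIF3E transcript occur elsewhere in the annotation.

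**Figure D2:**
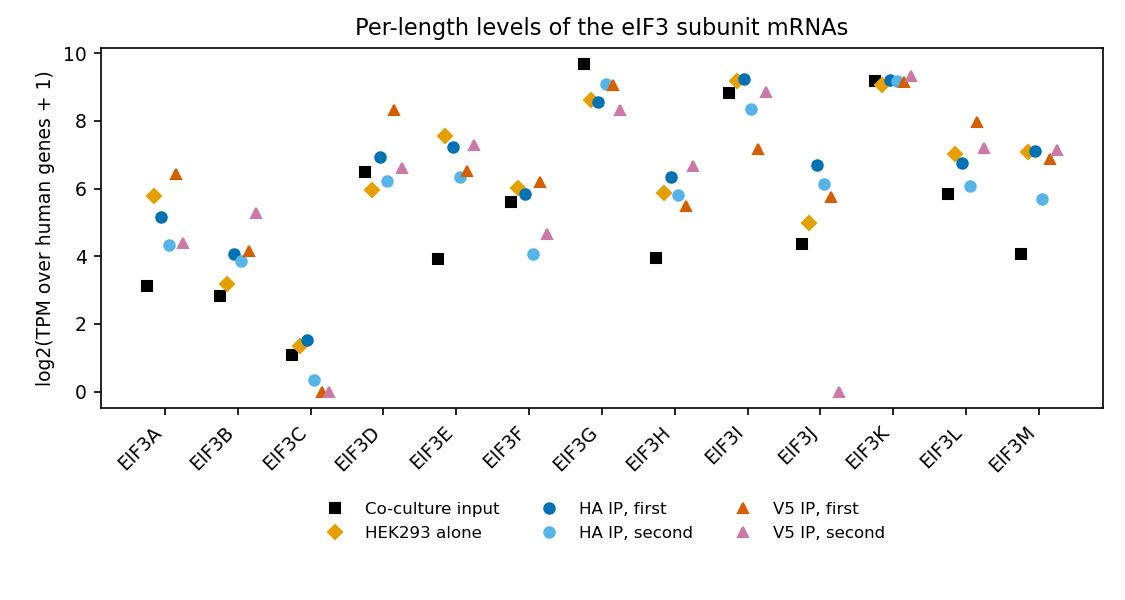
Per-length level of the 13 eIF3 subunit mRNAs as log2 of TPM plus 1, with 1 point per library. EIF3G, EIF3I and EIF3K lie highest in most libraries, EIF3C lies near 0, and the input (black squares) is low for EIF3A, EIF3E, EIF3H and EIF3M and high for EIF3G.

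Of the cap-binding group, EIF4EBP1 (chr8:38030341-38060365), the eIF4E inhibitor that mTOR switches off, stood at 2463 CPM in the input and 935 CPM in HEK293 cells alone. The HA pair held 2449 and 2612 CPM and the V5 pair 1257 and 2213 CPM. The HA IPs were at the level of the input and above HEK293 cells alone. Its relative EIF4EBP2 had 1 to 20 counts per library, so that EIF4EBP1 exceeded it 274- to 4029-fold per length.

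EIF4E (chr4:98871684-98930637) had 3 counts in the input (10.7 CPM), 117 CPM in HEK293 cells alone, 85.0 and 48.6 CPM in the HA pair, and 23.3 and 36.7 CPM in the V5 pair, from 3 counts each. EIF4E2, a cap-binding protein that represses translation, was at 132 CPM in the input, 125 in HEK293 cells alone, 137 and 140 in the HA pair and 38.8 and 330 in the V5 pair. Per length EIF4E2 exceeded EIF4E in every library, 2.08- to 24.2-fold, the highest ratios resting on 3 counts of EIF4E. In HEK293 cells alone the counts were close, 103 for EIF4E2 against 97 for EIF4E. The 2.08-fold ratio there rests mostly on annotated exonic lengths of 7177 and 14067 bases. Of the transcript of EIF4E2 33.7% overlaps other genes.

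EIF4G1, the main eIF4G, was at 121 CPM in the input, 108 in HEK293 cells alone, 147 and 67.6 in the HA pair and 543 and 73.4 in the V5 pair, the first V5 IP standing far above the rest. EIF4G2 stood at 75.0 CPM in the input, 201 in HEK293 cells alone, 230 and 113 in the HA pair and 209 and 220 in the V5 pair. The TPM ratio of EIF4G1 to EIF4G2 was below 1 in HEK293 cells alone, both HA IPs and the second V5 IP (0.349 to 0.668), and above 1 in the input (1.70) and the first V5 IP (2.72). EIF4G3 was at most 20.6 CPM and at 0 counts in both V5 IPs, which allows up to 23.3 and 36.7 CPM.

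Among the helicase genes, EIF4A2 (chr3:186783205-186789900), the second eIF4A, was at 32.1 CPM in the input, 23.0 in HEK293 cells alone, 0 and 7.42 in the HA pair and 15.5 and 12.2 in the V5 pair. Both HA IPs had the lowest values, the first with 0 counts, which allows up to 4.11 CPM. The input value came from 9 counts and the V5 values from 2 counts and 1 count. The order of HA and V5 IPs is thus not resolved. EIF4B (chr12:53006158-53042209), which helps eIF4A unwind, had 32.1 CPM in the input, 49.6 in HEK293 cells alone, 65.8 and 32.1 in the HA pair and 171 and 245 in the V5 pair. The V5 values lay above all others. EIF4H, a smaller helper of the same kind, was at 21.4 CPM in the input, 24.2 in HEK293 cells alone, 71.3 and 39.6 in the HA pair and 23.3 and 24.5 in the V5 pair. EIF4A3, part of the exon junction complex, did not exceed 48.9 CPM.

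PABPC1 (chr8:100685816-100722809), the main cytoplasmic poly(A)-binding protein, stood at 92.8 CPM in the input and 183 CPM in HEK293 cells alone. The HA pair held 148 and 77.5 CPM and the V5 pair 427 and 306 CPM. PABPC4, a relative, was at 49.97 CPM in the input, 77.4 in HEK293 cells alone, 108 and 98.1 in the HA pair and 186 and 147 in the V5 pair. For both genes the V5 IPs were the highest libraries. Per length PABPC1 exceeded PABPC4 by 1.13- to 3.37-fold, though in the second HA IP it had fewer counts, 94 against 119.

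EIF5A, the elongation factor that carries hypusine, was at 575 CPM in the input, 654 in HEK293 cells alone, 811 and 683 in the HA pair and 403 and 660 in the V5 pair. EIF6 (chr20:35278911-35284985), which keeps the ribosomal subunits apart, had 557 CPM in the input, 240 in HEK293 cells alone, 347 and 244 in the HA pair and 341 and 611 in the V5 pair. The input and the second V5 IP were high for EIF6. Of its transcript 22.0% overlaps AL121753.1, and 31.7% of the 50-base stretches of EIF5A occur elsewhere in the annotation.

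The HA IPs were first set against the input, to ask which factor mRNAs differ between tagged human ribosomes and the whole culture. Several genes with AU-rich transcripts had higher values in the HA IPs than in the input, and they were higher in the V5 IPs as well. In HA against input none of the 37 genes tested passed (edgeR quasi-likelihood test, adjusted p threshold 0.05 over all 6244 human genes tested). Over all genes 39 passed, 12 higher and 27 lower, or 0.625%; the split was 65 higher and 39 lower with scaling by total counts, and 77 higher and 63 lower or 75 higher and 62 lower when the first or second V5 IP was left out. At an unadjusted p below 0.05 there were 6 of the 37 genes, against 8.86% of all genes, and DESeq2 called 3, EIF1AX, EIF3E and EIF5. Fitted changes lay above 0 for 22 of 37 genes, against 61.4% of all genes, and their median log2 change was 0.19, against 0.38 over all genes. The median over all genes shifts with the scaling, to 0.17 with DESeq2 size factors and 0.57 with total counts, so changes are best read relative to it. In 23 genes both HA IPs lay above the input and in 6 both lay below, against 52.1% and 25.8% of all genes.

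The genes highest in this comparison were EIF5B, EIF5, EIF3E, EIF4E, EIF1AX and EIF3M. In each of them both V5 IPs also lay above the input. EIF5B had a log2 change of 3.47 (SE 1.32, edgeR adjusted p = 0.208), but with 2 counts in the input its pooled CPM ratio was 12.8 with a counting interval of 3.50 to 107. EIF5 had 2.74 (SE 0.81, edgeR adjusted p = 0.128), EIF3E 2.67 (SE 0.78, edgeR adjusted p = 0.126) and EIF1AX 2.33 (SE 0.69, edgeR adjusted p = 0.151). EIF3M had 2.20 (SE 0.74, edgeR adjusted p = 0.238). EIF4E, from 3 counts in the input, had 2.39 (SE 1.34, edgeR adjusted p = 0.604) and a pooled ratio of 5.82 with a counting interval of 1.94 to 28.6. EIF5 was called in 6 of 13 settings. Its adjusted p was 0.0119 with scaling by total counts, 0.0400 with DESeq2, 0.0498 with IP order as a block, 0.0392 and 0.0415 when the first or second V5 IP was left out, and 0.0173 without both, and it reached 0.998 with the GC trend removed.

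The lowest genes of this comparison with a mean of at least 50 CPM were EIF6, EIF3G, EIF3F and EIF2B2. Their log2 changes were −1.12 (SE 0.62) for EIF6, −1.03 (SE 0.56) for EIF3G, −0.81 (SE 0.73) for EIF3F and −0.53 (SE 0.75) for EIF2B2, and edgeR adjusted p-values ran from 0.579 to 0.900. Over 13 settings the changes ran from −1.34 to −0.62 for EIF6, from −1.68 to −0.53 for EIF3G, from −1.94 to −0.24 for EIF3F and from −1.14 to −0.13 for EIF2B2. When the first or second HA IP was left out they were −0.66 and −1.68 for EIF3G and −1.68 and −0.32 for EIF3F. Among the most abundant genes, EIF1 had a log2 change of 0.04 (SE 0.50) and EIF4EBP1 of −0.13 (SE 0.51). These last 2 changes are smaller than their errors and change sign with the settings.

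By role, 3 of 6 scanning factors (EIF5B, EIF5 and EIF1AX), 3 of 12 eIF3 subunits (EIF3E, EIF3H and EIF3M) and none of the other genes reached an unadjusted p below 0.05, which 8.86% of all genes did. The medians of the fitted log2 changes were 1.19 for the scanning factors, 0.66 for eIF3, −0.14 for eIF2B, −0.10 for the cap-binding group, 0.27 for the helicase genes, 0.45 for the poly(A)-binding genes and −0.47 for EIF5A and EIF6, beside 0.38 over all genes. EIF3E, EIF3F, EIF3H, EIF4B and PABPC1 were listed from general knowledge as carrying a 5′ terminal oligopyrimidine tract, a motif through which mTOR controls translation. The tracts were not checked in the sequences, and the list need not be complete. These 5 genes had a median of 0.36, close to that of all genes, with 4 of 5 above 0 and none called. Their median was −0.75 in HA against HEK293 cells, with 1 of 5 above 0, −0.16 in HA against V5 and 1.61 in V5 against input, again with none called. Over all genes the medians were 0.01, 0.37 and 0.00 in that order.

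These differences ran along the base composition of the transcripts, as they did for human genes at large. Across the 37 genes the log2 change of HA IP against input was lower at higher transcript GC content (Spearman's rho = −0.557), as it did across all 6244 genes (rho = −0.515). With the GC trend of each library removed, rho was −0.181 for the 37 genes and −0.138 for all genes. None of the 37 was called, as without the correction. The log2 change then was 2.31 for EIF5B, 1.72 for EIF5, 1.44 for EIF3E, 1.20 for EIF4E, 1.00 for EIF1AX and 0.94 for EIF3M, below the values given above for each of these 6 genes. The correction takes out such a trend by construction, so the drops in rho and in these values followed from it and are not a test. Genes are not independent replicates, and points share libraries and depth. In input minus HEK293 cells alone, 2 single libraries with no test, rho was 0.723 for the 37 genes and 0.666 for all genes. The part of GC content in the changes above was not tested.

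In sums, the 15 genes below 45% GC, among them EIF5B, EIF3E, EIF3M, EIF4E, EIF1AX and EIF5, held 835 CPM in the input. They held 2989 CPM in HEK293 cells alone, 2852 and 1868 CPM in the HA pair and 2443 and 2482 CPM in the V5 pair. The 25 genes at or above 45% held 9455 CPM in the input, 6515 in HEK293 cells alone, 9537 and 9304 in the HA pair and 7780 and 9572 in the V5 pair. The sum of the genes below 45% was thus lower in the input than in the 5 other libraries. Of the 37 genes 13 were lower in the input than in HEK293 cells alone by more than 1 on the log2 scale and 4 were higher, against 35.8% and 13.9% of all genes. EIF5B (−3.99), EIF3E (−3.56), EIF4E (−3.07) and EIF3M (−2.98) were the lowest, and EIF4EBP1 (1.39), EIF6 (1.20), EIF3G (1.10) and EIF4A3 (1.05) the highest in that log2 CPM difference with a prior count of 2. The value of EIF4A3 rested on only 6 counts in the input and 7 in HEK293 cells alone.

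**Figure D3:**
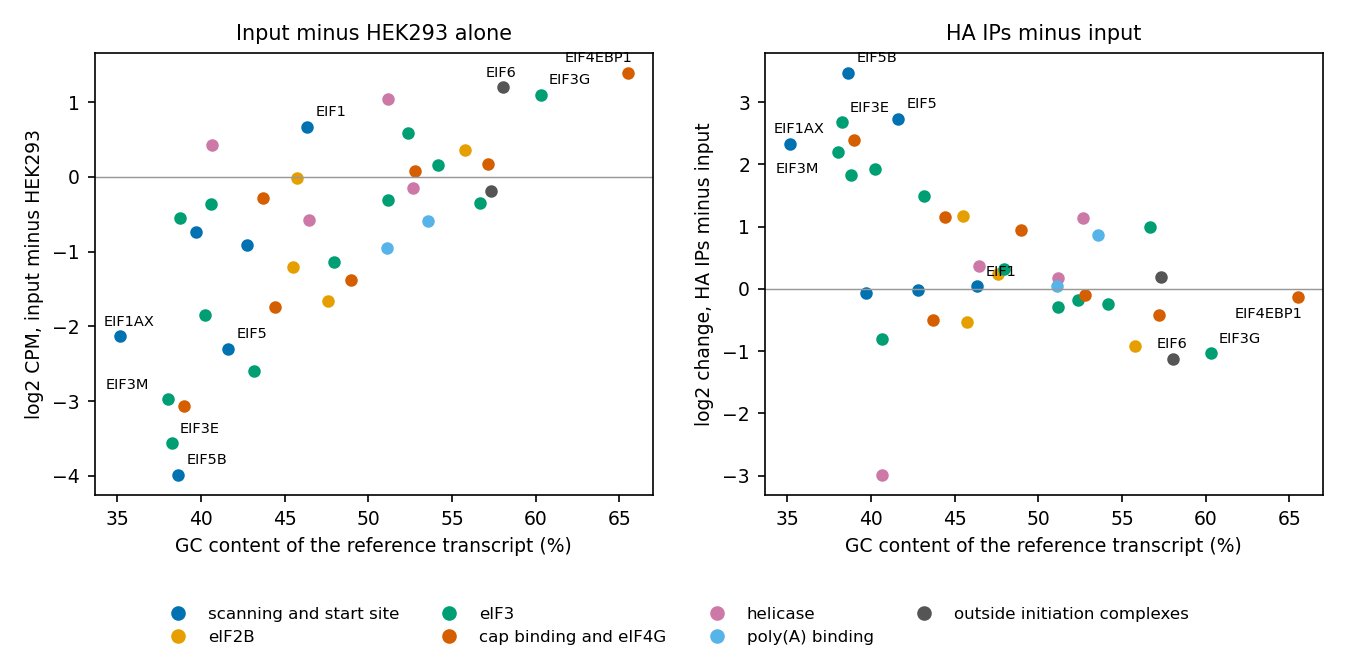
GC content of the reference transcript (x axis, percent) against the log2 CPM difference of input minus HEK293 cells alone (left) and the fitted log2 change of HA IPs minus input (right) for the 37 genes tested, coloured by role. Values rise with GC content on the left (rho = 0.723) and fall with it on the right (rho = −0.557), and the input enters both panels with opposite sign.

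Set against HEK293 cells grown alone, the HA IPs showed what tagged ribosomes of the co-culture held relative to total RNA of the human line. None of the 37 genes was called by edgeR, against 0.368% of all genes (3 higher and 20 lower, or 24 higher and 29 lower with scaling by total counts and 42 higher and 21 lower without the first HA IP), and 1 had an unadjusted p below 0.05, against 3.83% of all genes. DESeq2 called none of them. Fitted changes lay above 0 for 17 of 37 genes, against 50.6% of all genes, and the median was −0.08 against 0.01. The gene with the low p was EIF4EBP1, at 2531 ± 115 CPM (SD, n = 2) in the HA IPs against 935 CPM, with a log2 change of 1.45 (SE 0.51, edgeR adjusted p = 0.636). It passed when libraries were scaled by total counts (adjusted p = 0.00947) and when the first HA IP was left out (0.00543), and over 14 settings its adjusted p ran from 0.00543 to 1.00 and its log2 change from 0.77, with the GC trend removed, to 1.63. EIF1, with 0.90 (SE 0.50), EIF3J, with 1.40 (SE 0.95), EIF2B3, with −1.46 (SE 1.23), and EIF4A2, with −2.33 (SE 1.70), did not pass under any setting. In this comparison rho with GC content was 0.458 for the 37 genes and 0.302 for all genes.

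The HA IPs were then set against the V5 IPs, the background of human RNA that the other antibody carries along. No gene of the 37 passed (edgeR; 0.368% of all genes, 3 higher and 20 lower, passed), 6 had an unadjusted p below 0.05, against 11.2% of all genes, and DESeq2 called none. The split over all genes was 42 higher and 17 lower without the first HA IP, 16 higher and 36 lower without the first V5 IP, and 54 higher and 63 lower without the second V5 IP. Fitted changes lay above 0 for 19 of 37 genes, against 60.7% of all genes, with medians of 0.06 and 0.37. The median of all genes moved with the setting, to 0.03 with DESeq2 size factors, 0.003 with total counts and −0.21 with the GC trend removed, so the gap between these medians depends on the scaling. In 10 genes both HA IPs lay above both V5 IPs and in 7 both lay below, against 25.7% and 15% of all genes. The 6 genes with a low unadjusted p split evenly. EIF1 (log2 0.92, SE 0.42), EIF4EBP1 (0.95, SE 0.42) and EIF3J (1.92, SE 0.94) had higher values in the HA IPs. EIF4B (−1.75, SE 0.76), PABPC1 (−1.39, SE 0.61) and EIF4G1 (−1.27, SE 0.63) had lower ones. Over 13 settings the log2 change ran from 0.31 to 1.40 for EIF1, from 0.25 to 1.39 for EIF4EBP1 and from 1.09 to 9.16 for EIF3J. For PABPC1 it lay between −1.96 and −1.10 and for EIF4G1 between −2.04 and 0.86 over 13 settings. For EIF4B it lay between −2.36 and −1.49 over 12 settings. In the fit as reported, all 6 genes had an edgeR adjusted p between 0.373 and 0.436.

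PABPC1 and EIF4B were the clearest of the lower genes, though both come with a limit of the counting. Of the 50-base stretches of their transcripts, 11.99% for PABPC1 and 30.6% for EIF4B occur elsewhere in the annotation. Exons of other genes cover 1.64% of the PABPC1 transcript and 11.1% of the EIF4B transcript. PABPC1 had 113 ± 49.9 CPM in the HA IPs and 366 ± 85.6 CPM in the V5 IPs (SD, n = 2 each), and EIF4B had 49.0 ± 23.8 against 208 ± 52.2 CPM. Groups did not overlap for either gene, which in this direction was so for 7 of the 37 genes and 15% of all genes. Both genes were taken from those with a low unadjusted p in the same fit, so this adds no further support. EIF3L, a PCI subunit of eIF3, had 160 ± 43.2 against 352 ± 117 CPM, also without overlap (log2 −0.81, SE 0.59, and −0.39 without the first V5 IP), though 44.8% of its transcript overlaps other genes. EIF4G1 rested on the first V5 IP: without it the log2 change was 0.86 in place of −1.27. EIF3J passed without the first V5 IP, where the remaining V5 library held 0 counts of it.

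The V5 libraries are shallow, so these values carry wide counting errors: PABPC1 rested on 55 and 25 counts there and EIF4B on 22 and 20. In the NIH3T3 monoculture human EIF1 and PABPC1 had 3 counts each, EIF4G2 2 and EIF3K 1. Scaled to the mouse counts of the first V5 IP, 3 counts come to 2.90, with an exact Poisson upper limit of 8.49. In this comparison rho with GC content was −0.002 for the 37 genes.

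**Figure D4:**
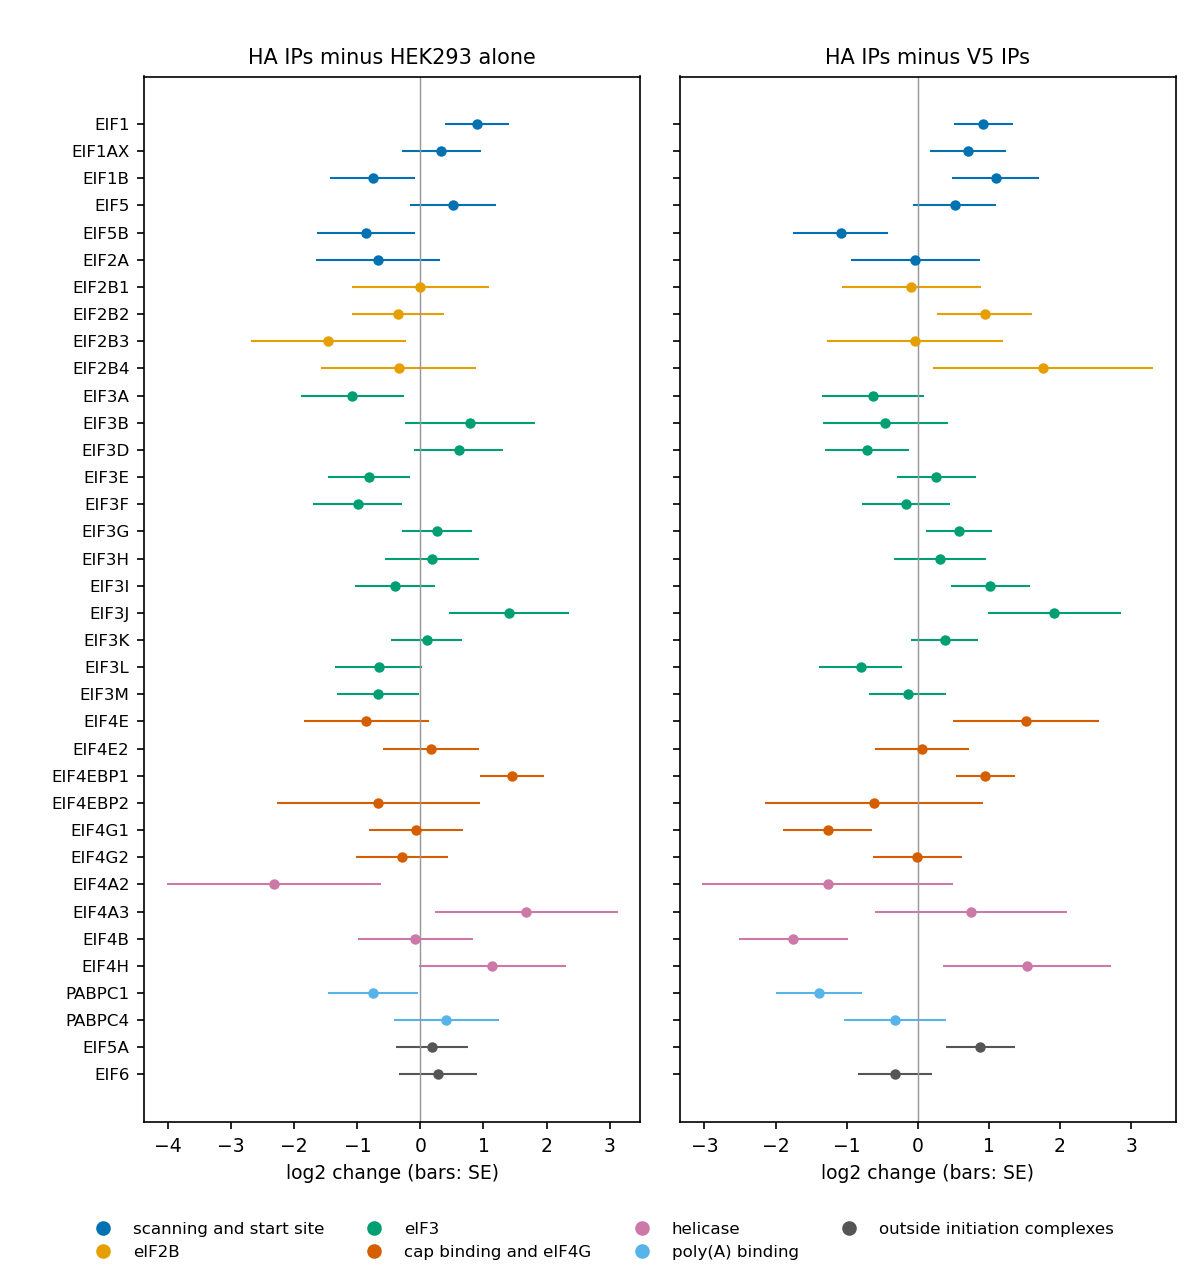
Fitted log2 change (points) with its SE (bars) of HA IPs minus HEK293 cells alone (left) and HA IPs minus V5 IPs (right) for the genes tested, coloured by role; EIF4G3 has no SE and is not drawn. No gene passed in either comparison, and EIF4EBP1 lies at 1.45 on the left, and PABPC1 (−1.39) and EIF4B (−1.75) lie left of 0 on the right.

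The comparison of V5 IPs with the input asks how human RNA that came along without its tag differs from the whole culture, and it shares the input with the comparison of HA IPs with input. Of the 37 genes only EIF5B passed, rising with a log2 change of 4.56 (SE 1.33, edgeR adjusted p = 0.0315), against 0.753% of all genes called, 16 higher (0.256%) and 31 lower. Fitted changes lay above 0 for 19 of 37 genes, against 49.6% of all genes, with medians of 0.11 and 0.00. With scaling by total counts the split was 85 higher and 20 lower, and when the first or second V5 IP was left out it was 62 higher and 54 lower or 87 higher and 80 lower. EIF5B had 2 counts in the input, and its pooled ratio was 32.6 with a counting interval of 8.55 to 277. The call was lost without filtering (adjusted p = 0.0907), with a stricter filter (0.0884), with IP order as a block (0.104), with the GC trend removed (0.125), and without the first HA IP (0.0756), the second HA IP (0.0859) or the second V5 IP (0.0609). Unadjusted p below 0.05 was reached by 9 of 37 genes, against 12.9% of all genes. EIF5B, EIF5, EIF1AX, EIF3A, EIF3E and EIF3M had higher values in the V5 IPs, and EIF3G, EIF3I and EIF4EBP1 had lower ones.

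EIF3E had a log2 change of 2.41 (SE 0.80, edgeR adjusted p = 0.159) in V5 against input, beside 2.67 in HA against input, and EIF3M had 2.35 (SE 0.75, edgeR adjusted p = 0.150) beside 2.20. EIF3G had −1.61 (SE 0.57, edgeR adjusted p = 0.150) beside −1.03. Both comparisons subtract the same single input library, which held 2 counts of EIF5B, 11 of EIF3E and 15 of EIF3M.

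The other genes of initiation and its control were taken from a list of 35, of which 25 could be tested. In HA against input 22 of the 25 lay above 0, against 61.4% of all genes. Of these, EIF2AK2, RPS6KB1 and GIGYF2 had 0 counts in the input and could only lie above 0. PPP1R15B had 1 count there, and EIF2AK4 and DDX3X had 2 each. The number above 0 is thus not read as a direction of the list. In the same comparison 1 gene passed, against 0.625%. The gene was EIF2S2, the beta subunit of eIF2. It had 96.4 CPM in the input, 368 in HEK293 cells alone, 903 and 976 in the HA pair and 768 and 697 in the V5 pair, the HA IPs being highest and the input lowest. It rose by a log2 change of 3.12 (SE 0.63; adjusted p = 0.00306 by edgeR), and it passed under each of 13 settings. EIF2S1, the alpha subunit that stress kinases phosphorylate, was at 28.6 CPM in the input, 162 in HEK293 cells alone, 126 and 28.8 in the HA pair and 101 and 24.5 in the V5 pair. EIF2S3, the gamma subunit, was at 39.3 CPM in the input, 529 in HEK293 cells alone, 148 and 36.3 in the HA pair and 248 and 12.2 in the V5 pair. In both genes the second IP of either antibody was low, and neither passed in HA against input (log2 1.13, SE 1.04 for EIF2S1, and 0.93, SE 0.85 for EIF2S3). Against HEK293 cells alone 1 of the 25 fell, EIF2S3 (log2 −2.63, SE 0.72, edgeR adjusted p = 0.0448), with both HA IPs below the monoculture. Its call was lost without either HA IP (adjusted p = 0.0656 and 0.999), with IP order as a block (1.00), with the GC trend removed (0.0605), without filtering (0.0695) and with a stricter filter (0.358). Over 13 settings its log2 change ran from −3.71, without the first HA IP, to −1.66, with the block, and it was −2.03 without the second HA IP. In HA against V5 none of the 25 passed, against 0.368% of all genes, and 3 had an unadjusted p below 0.05, against 11.2%. In V5 against input none passed, against 0.753%, and 5 had an unadjusted p below 0.05, against 12.9%. There EIF2S2 had a log2 change of 2.37 (edgeR adjusted p = 0.0704), and it passed in 7 of 12 settings, with adjusted p-values from 6.65e-05 to 0.158.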

How the data were processed

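RNA was measured in 7 libraries, and 6 with human RNA entered the comparisons. Per the labels' protocols, SMART-seq cDNA went into Nextera DNA Flex libraries. The authors deposited raw counts per gene (whole numbers). Per the file headers, featureCounts 1.5.2 assigned read pairs to exons, summed by gene, with no use of strand. The submitters' processing notes name STAR 2.5.2 and hg38; the sources used here give no mouse build.

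All 58721 human identifiers matched GENCODE 29 in start and end, which also gave transcripts, GC content, overlaps and start codons. CPM and TPM were computed over human counts. Tests used edgeR 4.0.16 (quasi-likelihood) in R 4.3.3 on the counts, two-sided, with TMM scaling of human counts, filterByExpr (minimum count 10, minimum total 15, 6244 genes kept) and Benjamini-Hochberg adjustment over all of them. The 6 libraries shared a fit with 2 residual degrees of freedom from the 2 pairs of IPs, and the spread of the single libraries was taken to equal that of the IPs. Between IPs the biological coefficient of variation was 51.2%. SEs come from the fit with its moderated dispersion. DESeq2 1.42.0, Python 3.11.15 and scipy 1.17.1 served for alternatives and the permutation test. The test was checked on simulated data.

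Alternatives were other scalings, no filter, at least 50 counts in 2 libraries, DESeq2, IP order as a block, offsets that take out the GC trend, and each IP left out in turn; leaving out the input or both V5 IPs was chosen after seeing the data. The genes, the lists and these choices were made with earlier results of these data known. Given with every library were genes called in any test, the 2 highest per length of each role, the 4 highest and 4 lowest in HA against input with a mean of at least 50 CPM, paralogue pairs and the eIF2 subunits. EIF1AX, EIF3M, EIF3J, EIF2B3, EIF3L and EIF4H were named after their values were seen where no such rule took them. Sequences of genes on chromosome 8 are not shown here.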

Additional observations from a re-analysis of the deposited data

Results flagged for a closer look

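The NIH3T3 monoculture, which the comparisons of human genes did not use, held 9 counts on the 40 human initiation factor genes, above the 3 counts that a summed count of 0 would allow; no single gene exceeded 3. They fell on EIF1 (3 counts), PABPC1 (3 counts), EIF4G2 (2 counts) and EIF3K (1 count), among 511 human counts in that library of 1999078 counts. Scaled to the mouse counts of the V5 IPs, the 3 counts came to 2.90 in the first V5 IP, with an exact Poisson upper limit of 8.49, and to 2.62 in the second, with 7.65, against 55 and 25 counts of PABPC1 and 171 and 197 of EIF1 in those libraries. The source of these counts was not tested.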

How the results depend on the processing

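The number of the 37 genes called in HA against input, 0 as reported, was 4 with scaling by total counts, 3 with DESeq2, 1 with IP order as a replicate block, 4 with both V5 IPs left out (an alternative chosen after seeing the data) and 0 to 2 when an IP was left out. In HA against HEK293 cells it was 1 with total counts and 0 to 1 with an IP left out, and in HA against V5 it was 0 to 1 with an IP left out. In V5 against input, 1 as reported, it was 5 with total counts, 3 with DESeq2, 0 without a filter, with the stricter filter, with the replicate block and with the GC trend removed, and 0 to 1 with an IP left out. There the 1 gene called without either HA IP was EIF3G, not EIF5B.

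Over all human genes, HA against input had 39 calls as reported, 68 with DESeq2 size factors, 104 with total counts, 82 with DESeq2, 25 with the GC trend removed, 235 with both V5 IPs left out and 29 to 140 with an IP left out. HA against HEK293 cells had 23, with 53 by total counts, 35 by DESeq2, 55 with both V5 IPs left out and 26 to 63 with an IP left out. HA against V5 had 23, with 38 by total counts, 40 with the GC trend removed and 18 to 117 with an IP left out. V5 against input had 47, with 72 by DESeq2 size factors, 105 by total counts, 30 without a filter, 7 with the stricter filter, 18 with the GC trend removed and 76 to 167 with an IP left out. The cause was not tested.

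Some changes near 0 turned sign. In HA against input EIF1 was −0.19 with DESeq2 size factors and with DESeq2, −0.15 with the stricter filter, −0.30 with the replicate block, −0.50 with the GC trend removed, −0.056 with both V5 IPs left out and −0.27 to 0.22 with an IP left out. EIF4EBP1 was 0.039 with total counts, 0.28 with the GC trend removed and −0.42 to 0.035 with an IP left out. With the GC trend removed EIF2S1 was −0.10 and EIF2S3 −0.042, and with an IP left out they were −0.035 to 1.72 and −0.16 to 1.49. EIF4G1 in HA against V5 was −2.04 to 0.86 with an IP left out. Of 410 values of single genes, 350 kept direction and call, 32 gained and 13 lost it, and 15 turned sign.

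The IP order pairs the libraries by number only: first IPs share lysate 1, but the second came from lysates 5 and 4, and same-numbered IPs deviated with a correlation of 0.186 over 2061 genes in 2 pairs. Depth limits what can be seen, since 3 counts correspond to 23.3 and 36.7 CPM in the V5 IPs.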
